A study of Mus musculus with 5 samples.

Results

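The 10 genes Slc38a5, Adra2b, 1300017J02Rik, Pkhd1l1, Icam4, Acp5, Hemgn, Aqp8, Slc5a2 and Reln were followed in RNA of the lower jaw of mouse embryos at embryonic day 10.5. They are 10 of the 23441 gene rows of the count table, and all 10 are among the 12710 genes with enough counts to be tested. They were chosen because their counts were many times higher in dCKO than in control libraries. Their rise is therefore given as a description with no test, and no count of how many rose is support for anything. Slc4a1, the gene of the red cell anion exchanger band 3, served as the red cell measure they were set against.

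The dCKO group had 2 libraries of genotype Wnt1Cre; Yapf/f, Tazf/f, on a mixed background of C57BL/6J x CBA/J; 129SvEv. The control group had 3 libraries of genotype Yapf/f, Tazf/f on the 129SvEv background, so the floxed alleles were shared by both groups and only the dCKO embryos carried a Cre. Wnt1Cre drives Cre in neural crest cells before they migrate. These cells give rise to most of the arch mesenchyme but not to its epithelium, endothelium or blood. Strain background and genotype cannot be told apart, since each differed between the same groups. Whether each library came from its own embryos is not in the labels, so spreads measure only the difference between these samples, which may be technical. In bulk RNA like this, fewer cells of a type and less RNA per cell cannot be told apart, and the same holds for more cells and more RNA per cell.

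At this stage of mouse development most circulating red cells are primitive erythroblasts. They still hold a nucleus and mRNA, and they carry embryonic globins, the anion exchanger, haem synthesis enzymes and a membrane skeleton. The transcription factors GATA1 and KLF1 act at many red cell genes, GATA1 at sites with the letters GATA and KLF1 at CACCC-type sites. Some of the 10 genes are known from red cells, such as Icam4 and Hemgn. Others are known mainly from elsewhere, such as Slc5a2 from kidney, Acp5 from bone and Reln from brain.

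The 300-base windows around the annotated transcription starts, from 250 bases before to 50 bases after each start, were read from RefSeq (GRCm38.p6) for 8 of the 10 genes. Acp5 had 3 windows, and Pkhd1l1, Slc5a2 and Slc4a1 had none in the table used. The windows were searched on both strands for 4 versions of the GATA letters, AGATAA or TGATAA and AGATAG or TGATAG. Of their 10 windows, 5 held at least 1 match, each from another gene, while 29.8% of all 32851 windows in the RefSeq table did. These 5 windows are printed because they hold a match, 5′ to 3′ on the gene's own strand, with every match in capitals. TTATCT and TTATCA are matches read from the opposite strand. The genes whose windows held no match were higher in dCKO as well.

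Acp5, first window, minus strand of chr9:22135697-22135996: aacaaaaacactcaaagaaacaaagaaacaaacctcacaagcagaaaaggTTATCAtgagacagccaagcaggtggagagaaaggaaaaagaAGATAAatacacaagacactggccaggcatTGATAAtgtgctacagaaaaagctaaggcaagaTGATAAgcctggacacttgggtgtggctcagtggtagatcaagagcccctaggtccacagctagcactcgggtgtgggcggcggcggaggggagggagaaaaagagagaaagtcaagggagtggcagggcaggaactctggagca
Hemgn, minus strand of chr4:46404134-46404433: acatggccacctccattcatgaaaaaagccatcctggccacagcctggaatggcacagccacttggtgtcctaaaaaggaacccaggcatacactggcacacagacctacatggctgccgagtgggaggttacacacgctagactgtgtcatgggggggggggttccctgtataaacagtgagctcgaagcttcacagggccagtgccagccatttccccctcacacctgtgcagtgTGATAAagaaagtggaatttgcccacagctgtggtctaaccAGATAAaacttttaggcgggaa
1300017J02Rik, minus strand of chr9:103288248-103288547: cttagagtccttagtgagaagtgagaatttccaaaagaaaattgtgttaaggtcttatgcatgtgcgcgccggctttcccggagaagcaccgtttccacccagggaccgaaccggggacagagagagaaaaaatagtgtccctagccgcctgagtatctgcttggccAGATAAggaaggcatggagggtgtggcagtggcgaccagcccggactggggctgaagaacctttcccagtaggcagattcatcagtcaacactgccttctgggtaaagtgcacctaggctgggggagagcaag
Icam4, plus strand of chr9:21029182-21029481: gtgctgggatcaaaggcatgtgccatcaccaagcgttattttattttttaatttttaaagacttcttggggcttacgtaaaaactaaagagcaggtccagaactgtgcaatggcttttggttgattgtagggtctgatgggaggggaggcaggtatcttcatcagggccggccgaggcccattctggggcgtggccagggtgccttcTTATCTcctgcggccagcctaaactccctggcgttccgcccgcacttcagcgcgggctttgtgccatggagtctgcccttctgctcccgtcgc
Slc38a5, plus strand of chrX:8271131-8271430: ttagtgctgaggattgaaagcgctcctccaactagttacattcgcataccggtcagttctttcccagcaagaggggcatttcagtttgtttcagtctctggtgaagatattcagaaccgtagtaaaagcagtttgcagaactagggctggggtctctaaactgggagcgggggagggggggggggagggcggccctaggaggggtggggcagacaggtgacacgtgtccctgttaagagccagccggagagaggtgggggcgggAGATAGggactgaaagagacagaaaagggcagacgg

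The first Acp5 window held 4 matches, all before the start, the nearest with 89 bases between it and the start. Hemgn held 2, one with 7 bases between it and the start and one beginning after 28 bases of the transcript. 1300017J02Rik held 1 match 77 bases before its start and Icam4 held 1 match 37 bases before its start. The only match of Slc38a5, AGATAG, lay within the transcript. Adra2b, Reln and Aqp8 had none of these letters in their windows. The looser letters CCNCNCCC stood in 9 of the 10 windows, all but that of Aqp8, and in 49.5% of all windows. The stricter CCACACCC, which is contained in CCNCNCCC, stood in the first Acp5 window at 2 places and in that of 1300017J02Rik at 1 place, thus in 2 of the 10 windows, and in 3.56% of all windows. A match of letters is a description of the sequence and not a bound site.

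The libraries differed in depth and in the share of embryonic globin counts before any of these genes was looked at. Total counts were 11346480 and 13298973 in dCKO replicates 1 and 2, against 6491137 to 7439419 in the controls. The embryonic globin genes Hba-x, Hbb-bh1 and Hbb-y took 7.43% and 5.30% of all counts in the dCKO libraries, against 0.335% to 0.441% in the controls, so the dCKO libraries also differ from each other. Yap1, a targeted gene, stood at 175 and 170 CPM (counts per 1000000, with library sizes scaled by TMM, as are all CPM values here) in dCKO tissue, against 312 to 512 CPM in controls. Wwtr1, the gene of Taz, stood at 22.7 and 22.8 CPM in dCKO, against 38.4 to 66.2 CPM in controls. Over all genes tested, edgeR's quasi-likelihood test called 5% higher and 1.42% lower in dCKO at an adjusted p below 0.05, which is 636 and 180 genes. When libraries were scaled by their totals alone, that split was 531 higher and 469 lower.

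All 10 genes were higher in both dCKO libraries than in any control library, as were 19% of the genes tested. The 10 also passed the threshold of the edgeR test as higher, where the background is the 5% given above. Since the genes were chosen on this contrast, nothing is read from either count. Their log2 fold changes had a median of 4.65, or 4.56 with Aqp8 and Slc5a2 at their lower bounds, beside a median over all tested genes of -0.00062. Of the 10, 4 (Adra2b, Acp5, Hemgn and Reln) reached the level of the low-count filter, 1.34 CPM, in at least 2 control libraries. The other 6 reached it in no control library and entered the fit through their dCKO counts.

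**Figure D1:**
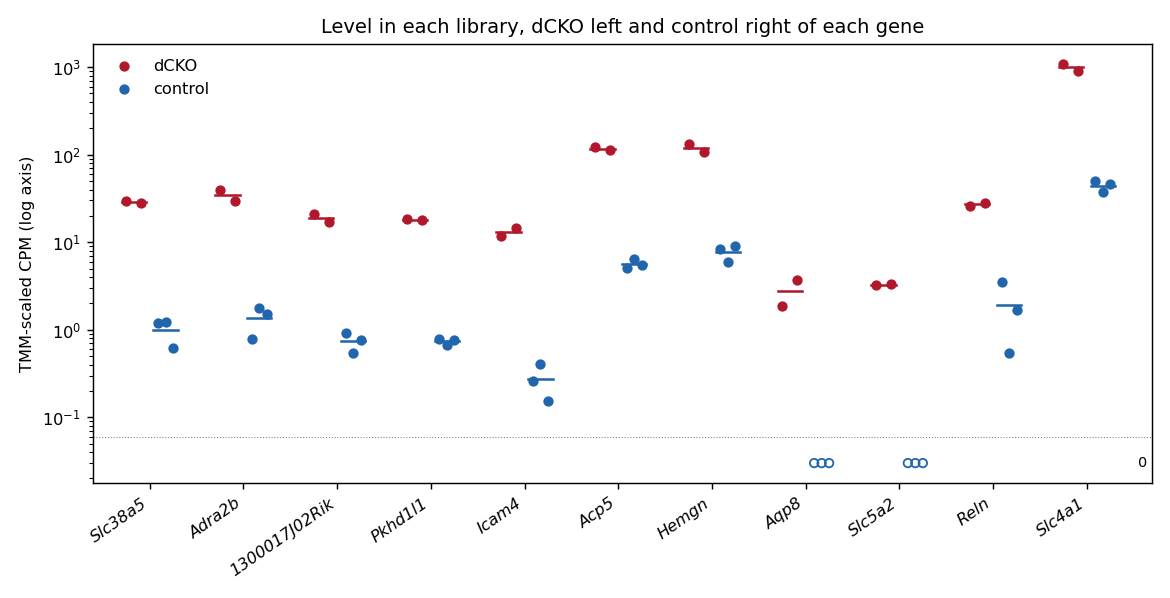
TMM-scaled CPM of the 10 genes and of Slc4a1 in each library on a log axis, with dCKO (red, 2 libraries) left of control (blue, 3 libraries), a bar at each group mean and open circles for libraries with 0 counts. Every dCKO point lies above every control point of its gene, and Aqp8 and Slc5a2 have 0 counts in the 3 controls.

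Among the membrane carriers, Slc38a5 encodes a sodium-coupled transporter of glutamine and other neutral amino acids. It had 320 and 368 counts in dCKO replicates 1 and 2 (29.6 and 28.2 CPM), against 9, 9 and 4 counts in control replicates 1, 2 and 3 (1.18, 1.22 and 0.611 CPM). The dCKO libraries were close to each other, and all controls lay far below them. The Poisson 95% interval of 4 counts, 1.09 to 10.2, meets that of 9 counts, 4.12 to 17.1. Its mean was 28.8-fold higher in dCKO (log2 fold change 4.81, SE 0.28).

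Aqp8 encodes a water channel that also passes ammonia and hydrogen peroxide. It had 20 and 48 counts in the dCKO libraries (1.85 and 3.68 CPM), against 0 counts in each control. The groups did not overlap, and dCKO replicate 2 was the higher of the pair. With 3 counts over the control group as the limit that a count of 0 allows, Aqp8 was at least 19.8-fold higher in dCKO. Slc5a2 encodes the sodium-glucose cotransporter SGLT2, known for glucose uptake in the kidney's proximal tubule. It had 35 and 43 counts in dCKO (3.23 and 3.29 CPM), against 0 counts in each control. Against the same floor it was 23.4-fold higher, with the same limits. Slc5a2 was level between the dCKO libraries, unlike Aqp8. In RefSeq, Slc5a2 overlaps the gene Rusf1, which is not used here, and no source used here says whether strand was used in counting, so their reads cannot be told apart.

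Among the surface receptors, Adra2b encodes the alpha-2B adrenergic receptor, which binds adrenaline and noradrenaline. Its counts were 427 and 382 in dCKO (39.5 and 29.3 CPM), against 6, 13 and 10 in controls (0.788, 1.76 and 1.53 CPM). In contrast to Aqp8, it was higher in dCKO replicate 1 than in replicate 2. The fold of means was 25.3 (log2 fold change 4.66, SE 0.28).

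Icam4 encodes an immunoglobulin-type adhesion molecule that binds integrins and, in humans, carries the Landsteiner-Wiener blood group antigens. It had 128 and 190 counts in dCKO (11.8 and 14.5 CPM), against 2, 3 and 1 counts in controls (0.263, 0.406 and 0.153 CPM). Its fold of means was 48.2 (log2 fold change 5.50, SE 0.42), the largest of the 8 genes with counts in the controls, and it rests on 6 control counts in all. Pkhd1l1 encodes fibrocystin-L, a very large membrane protein related to the fibrocystin of polycystic kidney disease. Its counts were 197 and 232 in dCKO (18.2 and 17.8 CPM), against 6, 5 and 5 in controls (0.788, 0.676 and 0.764 CPM), the smallest SD relative to the mean in controls among the genes detected there. The fold of means was 24.2 (log2 fold change 4.57, SE 0.31).

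Of the secreted proteins, 1300017J02Rik is listed in RefSeq with the synonyms Ica and mICA, an inhibitor of carbonic anhydrase of the transferrin family. It had 226 and 222 counts in dCKO (20.9 and 17 CPM), against 7, 4 and 5 in controls (0.920, 0.541 and 0.764 CPM). Replicate 1 was the higher dCKO library, as for Adra2b, and the fold of means was 25.5 (log2 fold change 4.65, SE 0.32).

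Reln encodes reelin, an extracellular glycoprotein that guides migrating neurons through the receptors Vldlr and Lrp8 and the adaptor Dab1. It had 284 and 367 counts in dCKO (26.2 and 28.1 CPM), against 27, 4 and 11 counts in controls (3.55, 0.541 and 1.68 CPM). The controls differed among themselves more than for any other of the 10 genes detected there, and the Poisson intervals of control replicate 1 (17.8 to 39.3 counts) and control replicate 2 (1.09 to 10.2 counts) did not meet. The fold of means was 14.1 (log2 fold change 3.80, SE 0.34), the smallest of the 8. Without control replicate 1 the log2 fold change was 4.64, and over all libraries left out in turn it ran from 3.34 to 4.64.

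Acp5 encodes tartrate-resistant acid phosphatase, an iron-containing enzyme used as a marker of osteoclasts and also made by macrophages. It was well counted, with 1307 and 1474 counts in dCKO (120.8 and 112.9 CPM), against 39, 48 and 36 in controls (5.12, 6.49 and 5.50 CPM). The spread in each group was small beside the 20.5-fold difference of means (log2 fold change 4.35, SE 0.16). Hemgn encodes hemogen, a nuclear protein of blood-forming cells. Its counts were 1418 and 1414 in dCKO (131.1 and 108.3 CPM), against 63, 44 and 59 in controls (8.28, 5.95 and 9.01 CPM), a fold of means of 15.4 (log2 fold change 3.95, SE 0.17). These 2 genes were the most abundant of the 10 in both groups.

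Slc4a1 itself had 11769 and 11716 counts in dCKO (1088 and 897 CPM), against 376, 275 and 303 in controls (49.4, 37.2 and 46.3 CPM), a fold of means of 22.4 (log2 fold change 4.49, SE 0.14). Its log2 fold change thus lies within the range of the 8 genes counted in both groups, 3.80 to 5.50. In all, 76 tested genes had a fitted log2 fold change at least as high as that of Reln.

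Compared per kilobase of the longest coding transcript in GENCODE M21, the levels in dCKO tissue spread widely. Acp5 stood at 80.7 CPM per kilobase and Hemgn at 50.6, beside 218 for Slc4a1. Slc38a5 (14.6), Icam4 (12.8), Adra2b (8.56) and 1300017J02Rik (8.29) formed a middle range of CPM per kilobase. Reln (2.32), Aqp8 (1.86), Slc5a2 (1.43) and Pkhd1l1 (1.39) were lowest, Pkhd1l1 and Reln having the longest transcripts of the 10, 12949 and 11699 bases. These levels take the longest transcript as the one counted, which the files do not show.

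The ratio of each gene to Slc4a1 within a library needs no scaling between libraries, and it shows whether a gene rose by more or less than Slc4a1. The median over the 8 genes counted in both groups was 1.11 (dCKO over control, from counts pooled by group), and 1.07 over all 10 with Aqp8 and Slc5a2 at the lower bounds that 0 control counts allow. A ratio of 1 means the same rise as Slc4a1. Per 1000 Slc4a1 counts, Hemgn had 120.5 and 120.7 counts in dCKO, against 167.6, 160 and 195 in controls. The groups did not overlap, and the pooled ratio was 0.693, so Hemgn was lower relative to Slc4a1 in dCKO. Reln had 24.1 and 31.3 per 1000 in dCKO, against 71.8, 14.5 and 36.3 in controls, groups that overlap widely (pooled ratio 0.630).

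Acp5 had 111 and 126 counts per 1000 Slc4a1 counts in dCKO, against 104, 175 and 119 in controls (pooled ratio 0.918). Adra2b had 36.3 and 32.6 per 1000 in dCKO, against 15.96, 47.3 and 33.0 in controls (1.13). Slc38a5 had 27.2 and 31.4 per 1000 in dCKO, against 23.9, 32.7 and 13.2 in controls (1.27). For these 3 genes the groups overlapped, and the same holds for Pkhd1l1, with 16.7 and 19.8 per 1000 in dCKO against 15.96, 18.2 and 16.5 in controls (1.09).

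Icam4 had the highest pooled ratio, 2.15, with 10.9 and 16.2 counts per 1000 in dCKO against 5.32, 10.9 and 3.30 in controls. Its groups overlapped too, since control replicate 2 lay just above dCKO replicate 1, and the pooled control value of 6.29 has a Clopper-Pearson 95% interval of 2.30 to 13.7 that reaches the pooled dCKO value of 13.5. For 1300017J02Rik the groups did not overlap but lay close, 19.2 and 18.9 per 1000 in dCKO against 18.6, 14.5 and 16.5 in controls (1.14), and the 95% interval of the pooled control value, 9.55 to 27.4, holds both dCKO values. Aqp8 and Slc5a2 had 2.90 and 3.32 pooled counts per 1000 in dCKO. The floor of 3 control counts is 3.14 per 1000, and the 95% interval of 0 pooled control counts reaches 3.87 per 1000. At that depth the controls could not show whether these genes kept, exceeded or fell short of their dCKO ratio to Slc4a1.

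In all, the groups overlapped in 6 of the 10 genes, lay higher in dCKO in 3 (1300017J02Rik, Aqp8 and Slc5a2) and lower in 1 (Hemgn). Aqp8 and Slc5a2 count as higher only because their control counts were 0. Across all genes tested, 0.0393% were higher and 99% lower relative to Slc4a1. The former are 5 genes, and these 3 are among them, so the 2 shares are not set against each other. Of 28 other red cell genes, 0 were higher, 16 were lower and 12 overlapped. Measured against the sum of those 28 genes in place of Slc4a1, the median ratio of the 8 genes was 1.51. That sum is mainly a measure of embryonic globins, since Hba-x, Hbb-y and Hbb-bh1 averaged 36405, 17771 and 11764 CPM in dCKO. The summed level of the whole red cell list was 58328 to 83075 CPM there. These values use the contrast the genes were chosen on and are given as a description.

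**Figure D2:**
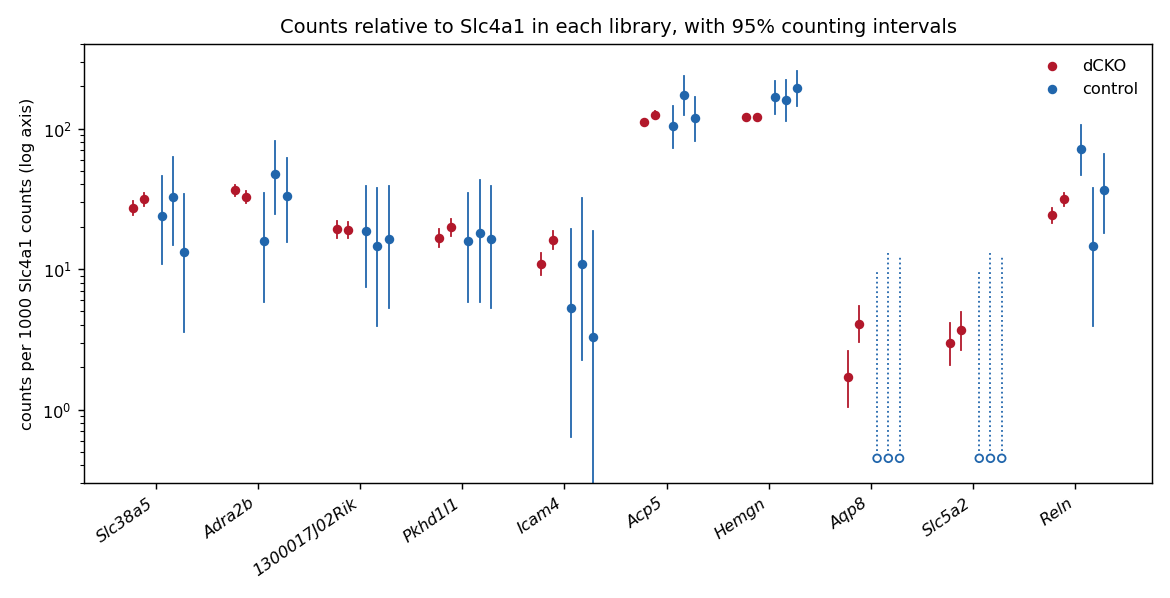
Counts of each gene per 1000 Slc4a1 counts in each library on a log axis, dCKO (red) left of control (blue), with 95% Clopper-Pearson intervals that cover counting error only, and open circles with dotted upper limits for libraries with 0 counts. Hemgn lies lower in both dCKO libraries than in any control, and the intervals of the controls are wide for genes with few counts.

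The dCKO libraries differed from each other in their levels of blood cell transcripts, and this difference was not part of the rule that chose the genes. Between the 2 dCKO libraries, genes of red cells and genes of megakaryocytes and platelets moved in opposite directions. Of 29 red cell genes, 25 were lower in replicate 2 than in replicate 1 and the median ratio of CPM, replicate 2 over replicate 1, was 0.825, with a range of 0.588 for Hbb-y to 1.24 for Cldn13. All 14 tested megakaryocyte and platelet genes were higher in replicate 2, with a median ratio of 1.84 and a range of 1.49 to 3.60. Over all tested genes, 50.5% were below 1 and the median was 0.997. The lists were drawn up with earlier results of these data known, and the intervals below are exact binomial intervals that cover counting error only.

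All of the 10 genes but Aqp8 lay within the range of the red cell list, and Aqp8 lay within that of the megakaryocyte and platelet list. Adra2b had a ratio of 0.741 (95% interval 0.644 to 0.853), 1300017J02Rik 0.814 (0.673 to 0.984) and Hemgn 0.826 (0.767 to 0.890), all lower in replicate 2 and close to Slc4a1 at 0.825 (0.804 to 0.846). Acp5 at 0.934 (0.867 to 1.01), Slc38a5 at 0.953 (0.818 to 1.11) and Pkhd1l1 at 0.976 (0.803 to 1.19) lay near 1. So did Slc5a2 at 1.02, with a wide interval of 0.636 to 1.64.

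Reln at 1.07 (0.915 to 1.25) and Icam4 at 1.23 (0.978 to 1.55) lay higher. Aqp8 stood at 1.99 (1.158 to 3.54), its interval above 1 and holding the median of the megakaryocyte and platelet list. The interval held the Slc4a1 ratio for 6 of the 10 genes and lay above it for 4, Acp5, Icam4, Aqp8 and Reln. Of 28 other red cell genes the interval held it for 11, lay above it for 10 and below it for 7, so ratios above that of Slc4a1 were also found among red cell genes. For the 14 megakaryocyte and platelet genes it lay above in all 14. These ratios compare 2 libraries, not a condition.

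**Figure D3:**
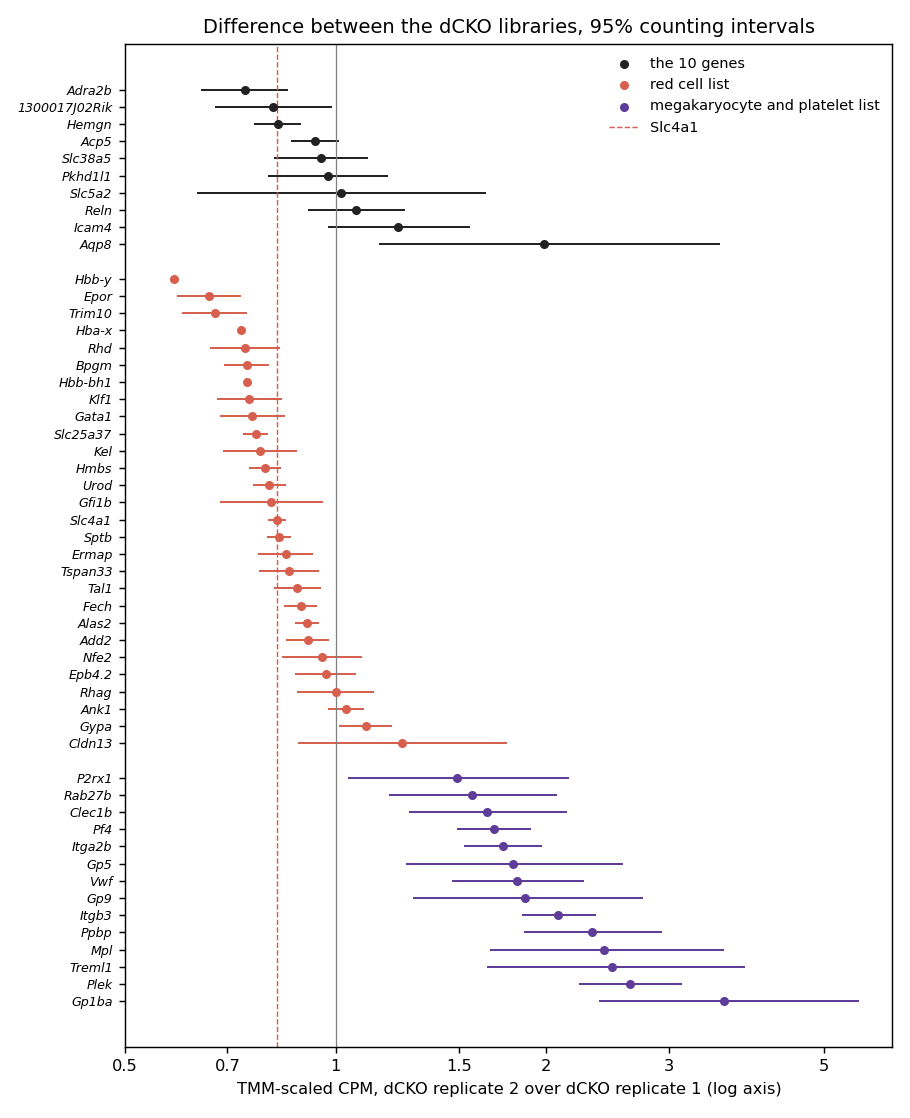
Ratio of TMM-scaled CPM, dCKO replicate 2 over dCKO replicate 1, on a log axis for the 10 genes (black), 28 of the 29 red cell genes (orange) and 14 megakaryocyte and platelet genes (purple), with 95% intervals that cover counting error only and a dashed line at Slc4a1. The 10 genes run from 0.741 for Adra2b to 1.99 for Aqp8, the red cell genes lie mostly below 1 and the platelet genes all above 1.

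The genes most like each of the 10 over the 5 libraries were sought among 12830 gene profiles, by the root mean square distance of centred log2(CPM + 0.5). With 5 libraries, this distance is driven mainly by the size of the group difference, and 0.5 CPM shrinks the profile of low genes. The nearest gene was Rhag for Adra2b (distance 0.148), Ermap for Hemgn and 1300017J02Rik (0.0994 and 0.119) and Alas2 for Pkhd1l1 (0.110). Rhag encodes the Rh-associated glycoprotein, Ermap an erythroid membrane protein and Alas2 the red cell form of the enzyme that starts haem synthesis. The 3 nearest genes of Slc38a5 included Nfe2 (0.196) and Ank1 (0.203), those of Icam4 included Ank1 (0.186) and Alas2 (0.193), and those of Acp5 included Hbb-bh2 (0.159) and Kel (0.170). Nfe2 is a transcription factor of red cell and platelet precursors, Ank1 the red cell ankyrin, Hbb-bh2 a beta-globin gene and Kel the gene of the Kell blood group in humans. All of these but Hbb-bh2 are on the red cell list. Off the list were also Csf2rb2 for Adra2b, Pklr for 1300017J02Rik, Pkhd1l1 and Hemgn, and Fam46c for Pkhd1l1 and Hemgn. Of the 3 nearest genes, the list held 3 each for Slc38a5 and Icam4 and 2 each for 1300017J02Rik and Acp5. It held 1 each for Adra2b, Pkhd1l1 and Hemgn.

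The other 3 genes had nearest genes outside the red cell list. Aqp8 and Slc5a2 had 0 counts in every control, so the added 0.5 CPM alone sets the control side of their profiles. It shrinks their rise, and their nearest genes rest on it. Aqp8 was nearest to Slc35d3, a transporter-like protein needed for platelet dense granules in mice (0.131), followed by Fermt3, the kindlin of blood cells (0.147), and Gp9, a platelet glycoprotein (0.206). Slc5a2 was nearest to Tgm2, a transglutaminase (0.121), Cpox, an enzyme of haem synthesis (0.127), and Slc39a8, a metal ion carrier (0.149). Reln was nearest to Csf2rb (0.273), Tfr2 (0.325) and Slc30a10 (0.363), a cytokine receptor subunit, the second transferrin receptor and a manganese exporter, at larger distances than the other 9. Over the 3 nearest genes of each of the 10, which make 30 places, red cell genes took 13 and the megakaryocyte and platelet list 1. The red cell list had 29 tested genes, beside 12830 profiles. Since the distance uses the contrast that the 10 genes were chosen on, nothing is read from this tally. Among the 10 themselves, 1300017J02Rik and Hemgn were closest (0.113) and Adra2b and Reln farthest apart (0.930).

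**Figure D4:**
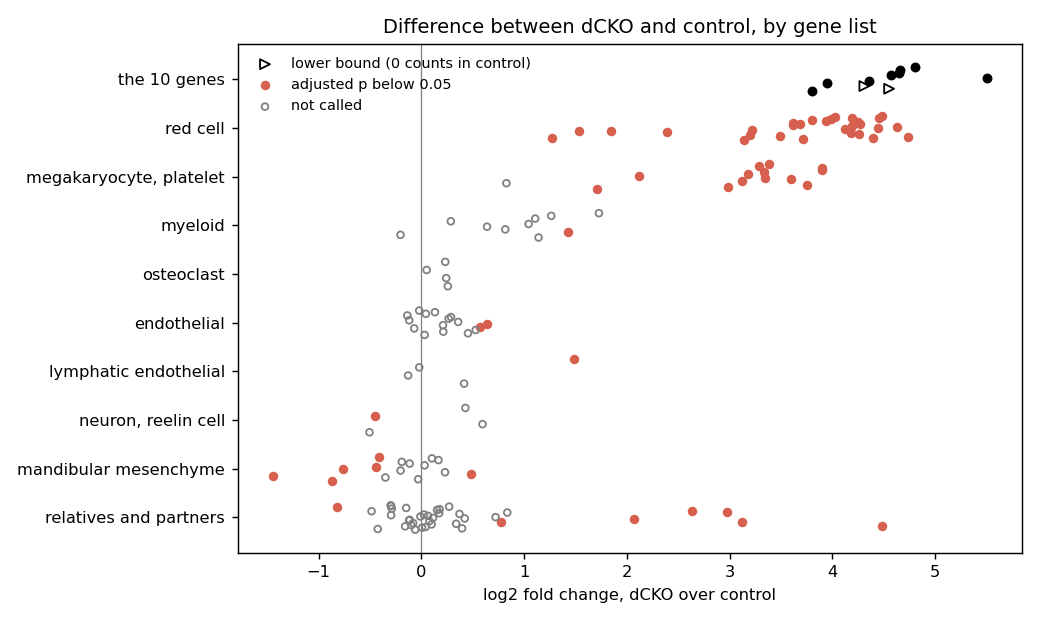
Log2 fold change, dCKO over control, of the 10 genes (black, with open triangles at the lower bounds of Aqp8 and Slc5a2) and of each tested gene of 8 cell type lists and of the relatives and partners of the 10 genes, filled where the edgeR adjusted p is below 0.05. The 8 genes with counts in the controls run from 3.80 to 5.50, beside 1.27 to 4.74 for the red cell list, and 31 of the 38 tested relatives were not called.

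Genes of the same families and known binding partners were listed by name, and the choice of the 10 genes did not use their values, so they were tested. The count table held 80 such relatives. Of these, 38 had enough counts to test, 6 rose and 1 fell (edgeR adjusted p below 0.05), 15.8% and 2.63% of those tested, beside 5% and 1.42% of all genes. Their median log2 fold change was 0.07.

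Among the aquaporins, Aqp3, a channel for water and glycerol, had 30.9 and 21.6 CPM in dCKO, against 1.31, 1.22 and 0.917 CPM in controls. It rose by 4.48 on the log2 scale (SE 0.29, edgeR adjusted p = 1.02e-09), a rise of the size of Slc4a1, and was higher in dCKO replicate 1, in contrast to Aqp8. Aqp4 did not pass and averaged 2.05 ± 0.02 CPM in dCKO and 2.31 ± 0.78 CPM in controls (SD, n = 2 and 3). Car2, the carbonic anhydrase abundant in red cells, is a candidate partner of 1300017J02Rik by that protein's name. It had 451 and 318 CPM in dCKO, against 56.4, 44.4 and 45.8 CPM in controls, and rose by 2.97 on the log2 scale (SE 0.15, edgeR adjusted p = 4.45e-11). The other 7 tested carbonic anhydrases did not pass, Car14 being the most abundant of them (144.9 ± 11.2 CPM in dCKO and 138.7 ± 1.69 in controls, SD, n = 2 and 3). Trf, the transferrin gene and the chromosomal neighbour of 1300017J02Rik, did not pass (8.58 ± 3.03 CPM in dCKO and 12.0 ± 4.90 in controls).

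The integrin subunits that ICAM4 can bind include Itgb3, the platelet beta-3 subunit, which also stands on the megakaryocyte and platelet list. It rose by 3.12 on the log2 scale (SE 0.26, edgeR adjusted p = 3.85e-08), with 36.3 and 75.7 CPM in dCKO against 5.26, 7.17 and 7.03 CPM in controls. Itgb2, the leukocyte beta-2 subunit, rose by 2.07 (SE 0.48, edgeR adjusted p = 0.0119), a call lost without dCKO replicate 2 (0.313). Itgb1, the most abundant of the 6 tested, did not pass (192.1 ± 14.4 CPM in dCKO and 208.7 ± 26.2 in controls). The neighbouring family gene Icam1 stood at 8.23 and 8.5 CPM in dCKO against 5.12, 4.46 and 5.65 in controls and did not pass (log2 fold change 0.72, edgeR adjusted p = 0.128), nor did Icam2, the most abundant of the family (11.5 ± 0.93 CPM in dCKO and 10.6 ± 2.24 in controls).

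Of the acid phosphatases, Acp1 rose by 0.78 (SE 0.23, edgeR adjusted p = 0.0456), a call lost in 6 of 13 alternatives, among them without control replicate 1 or 2 (0.0617 and 0.109) or dCKO replicate 2 (0.375). Of the amino acid carriers of the Slc38 family, Slc38a4 fell by 0.83 on the log2 scale (SE 0.12, edgeR adjusted p = 1.29e-04), with 62.1 and 71.4 CPM in dCKO against 121.8, 117.7 and 115.5 in controls. Slc38a2, the most abundant of the family, did not pass (300.7 ± 15.3 CPM in dCKO and 369.1 ± 12.5 in controls). Neither tested Slc5 relative passed, Slc5a3 being the most abundant of the family in the table (18.6 ± 1.09 CPM in dCKO and 18.2 ± 3.06 in controls).

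The reelin receptors and their adaptor did not pass the test. Vldlr averaged 15.6 ± 3.55 CPM in dCKO and 11.9 ± 4.52 CPM in controls (SD, n = 2 and 3). Lrp8 averaged 27.4 ± 6.49 CPM in dCKO and 37.0 ± 6.26 CPM in controls, and Dab1 10.1 ± 0.26 CPM in dCKO and 10.6 ± 2.36 CPM in controls. All 3 were therefore present at more than 5 CPM in every library. Pkhd1, the only relative of Pkhd1l1, had too few counts to test, 1 and 2 in dCKO and 1, 0 and 0 in controls.

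The choice of the 10 genes did not use the values of their chromosomal neighbours. Among the 2 protein-coding genes on each side of each of the 10 in RefSeq, 29 were tested. Of these, 4 rose (13.8%) and 0 fell, beside 5% and 1.42% of all genes tested. Their median log2 fold change was 0.12. The 4 that rose were Mrpl4 (0.51), Foxe1 (0.998), Tgfb1i1 (0.70) and Rgs10 (1.88), near Icam4, Hemgn and, for the last pair, Slc5a2. The calls of Mrpl4, Foxe1 and Tgfb1i1 had edgeR adjusted p of 0.0367 to 0.0449 and were lost in 5 of 13 alternatives each, in each case without control replicate 1 or either dCKO library, and for Mrpl4 also without control replicate 2. Rgs10 (0.00125) lost its call only without dCKO replicate 2 (0.111). The highest value of any neighbour was 2.33 (SE 0.73) for Gpat2 next to Adra2b, which did not pass (0.0679). No tested neighbour thus reached the log2 fold change of any of the 8 genes counted in both groups. Since the 10 genes were chosen for very large rises, nothing is read from this. The neighbours were listed after the values of the 10 genes had been seen.

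**Figure D5:**
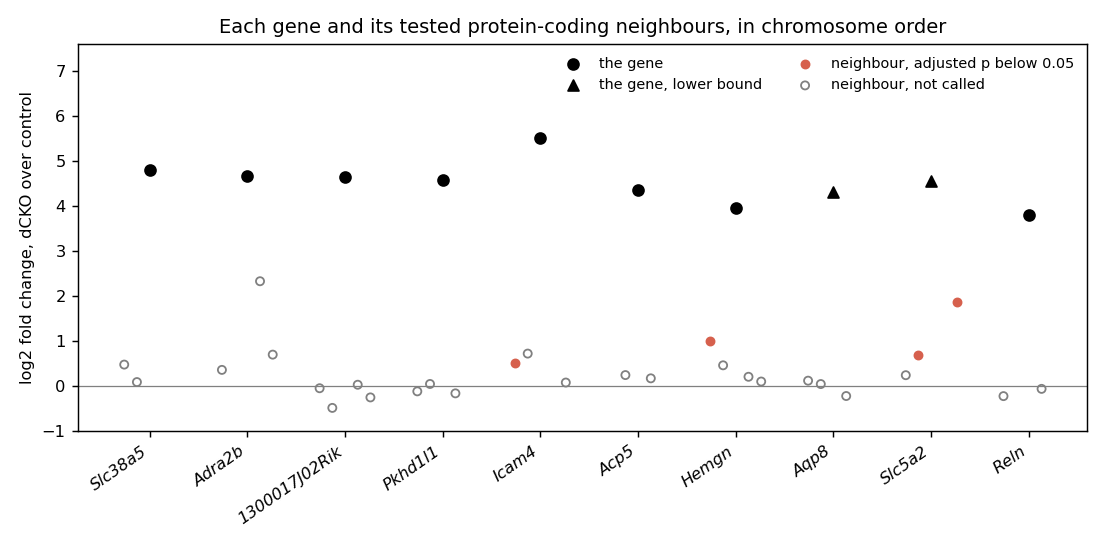
Log2 fold change, dCKO over control, of each of the 10 genes (black, triangles for the lower bounds of Aqp8 and Slc5a2) and of its tested protein-coding neighbours in chromosome order (circles, filled where the edgeR adjusted p is below 0.05). The neighbours lie between -0.49 and 2.33. Each of the 10 genes lies above all of its own, which their choice for very large rises made likely beforehand.

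Marker genes of red cells, of platelets and of other cell types that these genes are known from are given here as a description. Since the 10 genes were chosen for very large rises, nothing is read from lists that moved less than they did. All 29 tested red cell genes were higher in dCKO (median log2 fold change 3.99), with summed levels of 58328 to 83075 CPM in dCKO against 3803 to 4875 CPM in controls. The adult globins Hba-a1, Hba-a2, Hbb-b1 and Hbb-b2 had 0 counts in every library. Of 14 megakaryocyte and platelet genes, 13 rose (median 3.31), with summed levels of 190.6 to 374.7 CPM in dCKO against 31.5 to 47.3 CPM in controls. The part of either in the values of the 10 genes was not tested.

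For Acp5, the 4 tested osteoclast genes Ctsk, Nfatc1, Clcn7 and Tcirg1 did not pass, with log2 fold changes of 0.05 to 0.26. The other markers in the table had too few counts, and Atp6v0d2, which marks osteoclasts, had 0 in every library. The summed level of the list was 67.7 to 73.3 CPM in dCKO and 54.0 to 70.6 CPM in controls. Of 10 tested myeloid genes, 1 rose, Laptm5, a lysosomal membrane protein of blood cells (log2 fold change 1.42, SE 0.25, edgeR adjusted p = 7.66e-04), while the list's median was 1.07. Myeloid sums were 37.3 and 66.8 CPM in dCKO, against 24.2 to 29.4 CPM in controls, and their part in the Acp5 values was not tested.

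For Slc5a2, the proximal tubule list had 1 testable gene, Lrp2, which did not pass (log2 fold change 0.37, SE 0.18, edgeR adjusted p = 0.233), and 4 of its 8 genes, Slc34a1 and Slc22a6 among them, had 0 counts in every library. For Reln, 4 genes of reelin-secreting and other neurons could be tested. Ebf3 fell by 0.45 on the log2 scale (edgeR adjusted p = 0.0408), a call lost without any 1 library other than control replicate 3, and Trp73, Tubb3 and Elavl4 did not pass. For Pkhd1l1 and Reln, genes of endothelium and of lymphatic endothelium were also set beside them. Of 16 endothelial genes, Egfl7 and Cldn5 rose (log2 fold changes 0.57 and 0.64, edgeR adjusted p = 0.0403 and 0.0428), with a list median of 0.21. Of 4 lymphatic genes, Prox1 rose (1.49, edgeR adjusted p = 0.0270). Each of the calls of Egfl7, Cldn5 and Prox1 was lost without control replicate 1, without control replicate 2 and without dCKO replicate 1 (edgeR adjusted p up to 0.442). For Aqp8, known also from liver, 2 of 11 liver and visceral endoderm genes could be tested. Afp did not pass, and Apob fell by 2.38 on the log2 scale (edgeR adjusted p = 0.0128), a call lost without either dCKO library (0.203 and 0.0789). Of 15 genes of the mandibular mesenchyme, 1 rose and 5 fell (median -0.19), with a summed level of 2472 to 2606 CPM in dCKO, against 2638 to 2881 CPM in controls. The markers of the labelled tissue were thus present in every library.

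The authors' deposited table gives smaller folds than the counts for the genes with the fewest control counts. Its group means were recovered for 18583 of 18583 genes only when 1 was added to every count before scaling, within a relative tolerance of 1e-06. For Icam4 the authors' deposited table gives a 32.7-fold rise, while the same scaling without the added count gives 49.0-fold, 1.5 times as much. For Slc38a5 the authors' deposited table gives 25.8-fold, against 29.3-fold without it, and for Slc4a1 both come to 22.8-fold. The 20.7-fold rise of Aqp8 and the 24.4-fold rise of Slc5a2 in the authors' deposited table rest on a wild type mean of 1.21 that holds no read of either gene.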

How the data were processed

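Poly(A) RNA of mandibular tissue was sequenced in 2 dCKO and 3 control libraries, with groups taken from titles and genotypes in the labels. The authors deposited raw read counts per gene symbol, with totals of 6491137 to 13298973 per library. A second deposited table gives the authors' comparison. Per the file headers it holds a signal per gene (mean normalized counts per group), the fold as a ratio of means, its log2 value and p-values. The submitters' processing notes name the mm9 build, DESeq 1.16.0 and HTSeq 0.5.4p3. No source used here gives the aligner, the annotation or the use of strand. Symbols turned into dates stand in 27 of its rows, none of them a gene named here.

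Genes were filtered with filterByExpr (minimum count 10, minimum total count 15), scaled with TMM, and tested on group with edgeR 4.0.16 (glmQLFit and glmQLFTest, two-sided, R 4.3.3), with Benjamini-Hochberg adjustment over 12710 genes and a threshold of 0.05. The script was tested on simulated data. Libraries of the same group differed from each other beyond sampling noise (chi-square of 4.42 to 14.6 per gene). A control group at 0 counts was given a floor of 3 counts over the group. Intervals are at 95% and cover counting error only. The compared profiles average at least 1 CPM. Named were the 10 genes and Slc4a1, up to 4 genes with the smallest p per cell type list, every relative past the threshold with the most abundant of each family, and the 3 genes nearest in profile. Single values of 2 genes under this rule are not reported here. Other genes, the neighbours among them, were named after their values were seen. The members and lists were chosen with earlier results of these data known. Alternatives were RLE and unscaled library totals, scaling without red cell genes, DESeq2 1.42.0, limma-voom (limma 3.58.1), 2 other filters, each library left out in turn and the replicate number as a block. Sequences and neighbours come from RefSeq GRCm38.p6, another build than mm9, and transcript lengths from GENCODE M21.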

Additional observations from a re-analysis of the deposited data

How the results depend on the processing

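Of the 138 alternative values computed for the 10 genes, 0 reversed direction. Genes chosen for very large rises in these libraries could hardly reverse, so nothing is read from this. The largest moves came with 1 added to every count. The fitted log2 fold change of Aqp8 then went from 7.67 to 4.24 and that of Slc5a2 from 7.90 to 4.46. The median log2 fold change of the 10 (4.65) was 4.38 with 1 added to every count, an alternative chosen after seeing the data, and 4.53 to 4.82 with single libraries left out. The median ratio to Slc4a1 over all 10, with Aqp8 and Slc5a2 at their lower bounds, was 1.07. It was 1.46 against the sum of the red cell list, which is mostly embryonic globins, and 0.961 to 1.15 with single libraries left out. Over the 8 genes counted in the controls it was 1.11, 1.51 and 1.062 to 1.103 in the same settings. The ratio of the dCKO libraries kept a median of 0.965 to 0.993 under other scalings. The 7 called relatives were 4 with the stricter filter on low counts, which also leaves out Aqp8 and Slc5a2, and 4 to 8 with single libraries left out. The 636 higher and 180 lower genes numbered 403 to 950 and 39 to 687 with single libraries left out, the lower 469 without TMM factors and 305 without a filter on low counts. With the replicate number as a block they were 1200 and 921. Deviations of same-numbered libraries correlated at 0.0478 over the 2 shared numbers. Within a group the 2 deviations mirror each other, so this is a single comparison. It cannot show whether the numbers pair the samples. The count of red cell genes called higher was 29 in every alternative run except the stricter filter, where it was 28. With 1 dCKO library left out, the other is assumed to vary as controls do. Depth limits Aqp8, Slc5a2 and Icam4 most, with 0, 0 and 6 control counts. The cause of these changes was not tested.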
